A study of Mus musculus with 6 samples.

Results

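A set of 10 mature miRNAs known from the nervous system was followed in mouse embryonic stem cells (ESCs), which are pluripotent and not neural. They were chosen by name from a count table of 1907 mature miRNAs, as the rows mmu-miR-9-5p, mmu-miR-9-3p, mmu-miR-124-3p, mmu-miR-128-3p, mmu-miR-7a-5p, mmu-miR-153-3p, mmu-miR-137-3p, mmu-miR-138-5p, mmu-miR-218-5p and mmu-miR-219a-5p. All 10 were in the table. Of the 10, 9 passed the filter on low counts and were tested among 571 miRNAs, and miR-137-3p did not pass. The 6 small RNA libraries came from 2 ESC lines of the C57BL/6 background, RB18 and RB20, each grown without feeder cells in 3 media. Serum medium held 15% fetal bovine serum. The 2i medium was free of serum and held 1 µM PD0325901, a MEK inhibitor, with 3 µM CHIR99021, a GSK3 inhibitor. The R2i medium was also free of serum and held 1 µM PD0325901 with 10 µM SB431542, an inhibitor of the TGF-β receptor. All 3 media held 1000 U/ml LIF, the cytokine that maintains mouse ESCs. Both lines were first derived in R2i and were moved to the other media afterwards. Each library was made from a pool of 3 cultures, so each medium was represented by 2 libraries, 1 per line, and the spread between them joins cell line, pool and sequencing. "Ground state" denotes the mean of 2i and R2i.

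A miRNA is cut from a hairpin precursor by Drosha and Dicer, and usually a single arm of the hairpin is kept by Argonaute, where it directs repression of mRNAs that pair with its seed, bases 2 to 8. Among the miRNAs examined here, miR-9 and miR-124 are known for their parts in neural progenitors and neurons, miR-128, miR-137 and miR-138 for neuronal maturation and synapses, miR-218 for motor neurons and miR-219 for the maturation of oligodendrocytes. miR-7 and miR-153 are known from brain and neuroendocrine cells, and miR-7 is also bound by the circular RNA Cdr1as. Mouse ESCs are known for other miRNAs, above all the cluster that runs from miR-290a to miR-295.

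The mature sequences are shown because the seed sets which mRNAs a miRNA can pair with, and because paralogs that share a seed are best read together. They are RefSeq sequences for the GRCm38 assembly, written 5′ to 3′ with the seed in capitals. Of the 10 miRNAs, 9 had an entry, and miR-124-3p is given by name. The 9 sequences carried 9 different seeds, including those of both arms of the miR-9 hairpin. The paralog miR-7b-5p is placed last.
miR-9-5p: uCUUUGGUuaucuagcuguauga
miR-9-3p: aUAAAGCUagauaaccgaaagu
miR-128-3p: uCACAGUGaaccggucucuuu
miR-7a-5p: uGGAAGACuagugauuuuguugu
miR-153-3p: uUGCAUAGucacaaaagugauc
miR-137-3p: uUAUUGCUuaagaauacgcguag
miR-138-5p: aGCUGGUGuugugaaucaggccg
miR-218-5p: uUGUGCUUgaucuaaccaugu
miR-219a-5p: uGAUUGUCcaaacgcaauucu
miR-7b-5p: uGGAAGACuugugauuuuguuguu

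miR-7b-5p had the seed of miR-7a-5p and differed from it by A10U, counted from 1 at the 5′ end with the miR-7a-5p base first, and by 1 extra base at the 3′ end. No other miRNA of the table with a RefSeq sequence had one of the 9 seeds at bases 2 to 8 together with a mean level at least as high. The letters of the miR-128-3p seed also occurred at bases 3 to 9 of miR-27a-3p and miR-27b-3p, which were singled out after their values were seen. Their mean levels were 903 and 19465 normalized CPM, against 370 for miR-128-3p.

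Most of these mature miRNAs are made from more than 1 gene, and a read of a shared mature sequence cannot be assigned to a single gene. The 9 placed miRNAs came from 15 hairpin genes in the GRCm38 (mm10) annotation, with 3 genes for miR-9, 2 each for miR-128, miR-7a, miR-138, miR-218 and miR-219a, and 1 each for miR-137 and miR-153. Introns of protein-coding genes on the same strand held 6 of them. Mir7-1 lay at chr13:58392779-58392886 on the minus strand in an intron of Hnrnpk, which encodes an abundant RNA-binding protein, whereas Mir7-2, at chr7:78888277-78888373, lay in no annotated gene. Mir153 lay at chr12:117250817-117250885 in an intron of Ptprn2, which encodes a protein of secretory vesicles, and an antisense transcript, Gm5441, is annotated across it. Mir218-1, at chr5:48223942-48224051, and Mir218-2, at chr11:35616816-35616925, lay in introns of Slit2 and Slit3, which encode axon guidance ligands. Mir128-1 and Mir128-2 lay in introns of R3hdm1 and Arpp21, at chr1:128202361-128202430 and chr9:112118636-112118711. The 3 miR-9 genes, Mir137, both miR-138 genes and Mir219a-1 overlapped non-coding or pseudogene transcripts, and Mir219a-2 lay outside any annotated gene.

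The counts assigned to miRNAs totalled between 1041858 and 3593356 per library, with RB18 below RB20 in all 3 media, so that line and depth cannot be told apart. At this depth 3 counts correspond to 0.835 to 2.88 CPM, the count scaled to the library total, and a level below that could not be read. The ESC label was checked with the cluster from miR-290a to miR-295, which took between 33.5% and 43.5% of the counts in the 6 libraries. Markers of other cell types were present at different levels between media. The 4 listed muscle miRNAs (miR-1a-3p, miR-133a-3p, miR-133b-3p and miR-206-3p) summed to 83.7 and 41.9 CPM in serum. The sums were 0.486 and 0.297 under 2i, below the level that could be read, and 8.64 and 3.9 under R2i. Muscle miRNAs outside the list went both ways in the ground state. The log2 fold change against serum was -4.16 for miR-208b-3p (mean 24.8 normalized CPM) and 3.12 for miR-499-5p (98.6). Of the 4 listed muscle miRNAs, miR-206-3p and miR-133b-3p were at 0 in all 4 ground-state libraries. They were scarce in serum RB18 and RB20 as well, with 0 and 3 counts of miR-206-3p and 1 and 0 of miR-133b-3p. The 4 mesenchymal miRNAs summed to between 1487 and 1769 CPM in serum and between 2284 and 3458 in the ground state, nearly all of it miR-143-3p. The 4 blood miRNAs summed to between 2554 and 2645 CPM in serum, 1747 and 4790 under 2i, and 313 and 828 under R2i. Most of this was miR-142a-5p, and miR-223-3p was at 0 in every library. By contrast, miR-451a was higher in the ground state. It was counted 0 and 3 times in serum RB18 and RB20, 26 and 27 times under 2i, and 22 and 66 times under R2i. The 4 endoderm miRNAs summed to between 1468 and 2404 CPM, and the serum libraries lay among the others, but most of this was miR-192-5p. The rarer miR-375-3p was counted 11 and 22 times in serum RB18 and RB20. It was counted 1 and 2 times under 2i, and 12 and 4 times under R2i. miR-122-5p was counted at most 7 times in any library. The part of these cells or markers in the results below was not tested.

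The 10 neural-lineage miRNAs were a small part of the ESC miRNA pool in every medium. They took 0.698% (95% Wilson interval 0.686 to 0.71) and 0.827% (0.815 to 0.839) of the counts in serum RB18 and RB20. The shares were 0.46% (0.451 to 0.47) and 0.402% (0.395 to 0.409) in 2i, and 0.511% (0.497 to 0.524) and 0.422% (0.415 to 0.429) in R2i. Both serum libraries therefore lay above all 4 ground-state libraries. The intervals cover counting error only. They treat reads as independent molecules, which reads are not, so they may be too narrow even for that. A single miRNA, miR-7a-5p, made up between 73.5% and 89.1% of these counts, and so dominates the summed share.

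Levels of single miRNAs are given as normalized CPM, CPM after edgeR's TMM scaling, and the mature sequences are similar in length (21 to 23 bases), so no length scaling was applied. How well each sequence is captured by the library preparation was not measured. miR-7a-5p had the highest mean over the 6 libraries, 4509 normalized CPM, rank 33 of the 1907 miRNAs. It was followed at a distance by miR-124-3p (401, rank 122), miR-128-3p (370, rank 130) and miR-9-5p (133, rank 199). Lower were miR-218-5p (74.1, rank 256), miR-153-3p (38.8, rank 319) and miR-138-5p (36.1, rank 329). At the bottom were miR-219a-5p (11.9, rank 440), miR-9-3p (7.4, rank 484) and miR-137-3p (1.43, rank 662). The order changed between libraries, and so was not resolved, for miR-124-3p with miR-128-3p, miR-9-5p with miR-218-5p, and miR-153-3p with miR-138-5p. The ranges over all media also overlapped for miR-9-5p and miR-218-5p, each with miR-153-3p, and for miR-218-5p with miR-138-5p. They did so as well for miR-153-3p and miR-138-5p, each with miR-219a-5p, and for miR-219a-5p with miR-9-3p. In these last pairs the first named was the higher in each library. The gap was small in serum RB18 for miR-218-5p with miR-138-5p, at 32.9 against 31.2. It was small there too for miR-219a-5p with miR-9-3p, at 12.6 against 12.0. miR-7a-5p stood above the other 9 in each library.

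**Figure D1:**
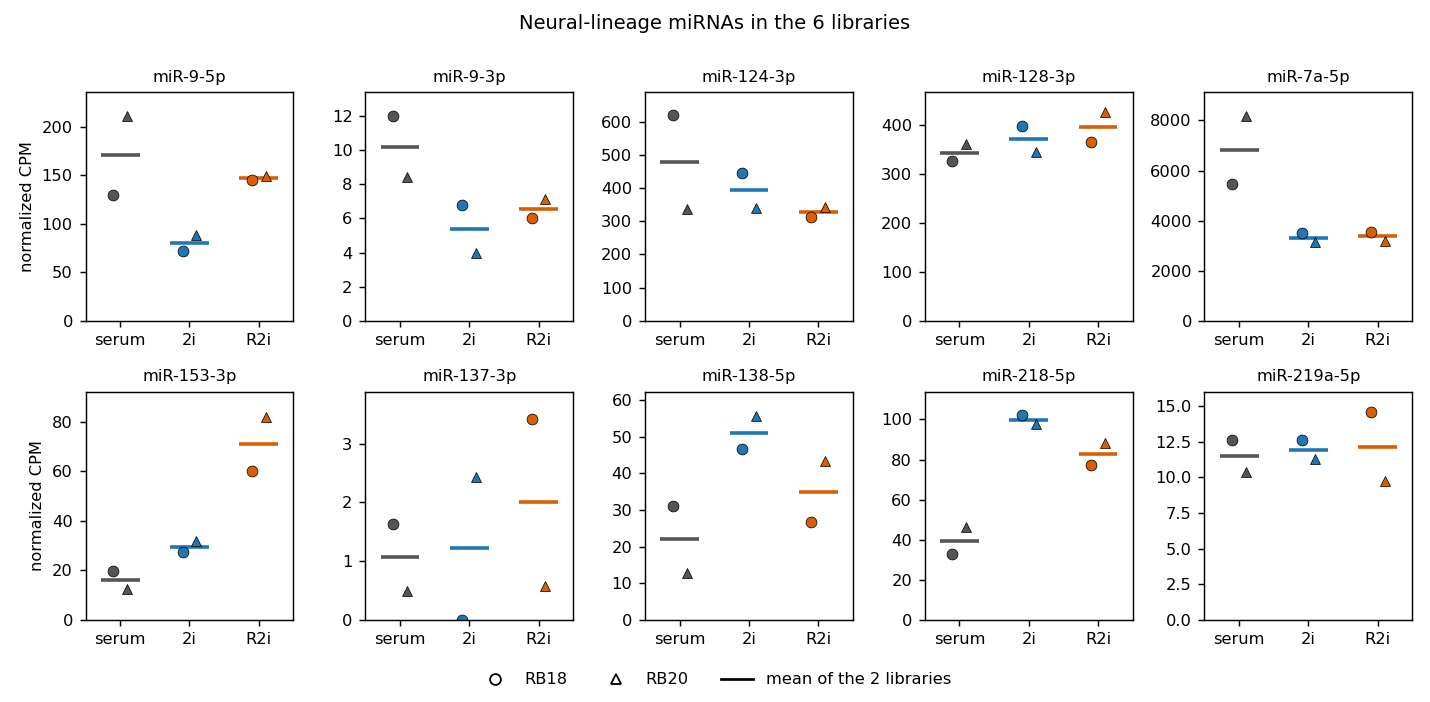
Normalized CPM (vertical axes, each starting at 0 with its own scale) of each of the 10 miRNAs in serum, 2i and R2i. Circles are RB18, triangles RB20 and bars the mean of the 2 libraries. miR-7a-5p and miR-9-3p are lower in all 4 ground-state libraries than in serum, and miR-153-3p and miR-218-5p are higher in all 4. The share of all tested miRNAs whose libraries separate in this way was not counted.

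The comparison of media asks whether these miRNAs differ between serum-grown and ground-state ESCs. Calls required a change of more than 2-fold and an adjusted p under 0.01 (edgeR's quasi-likelihood test, Benjamini-Hochberg adjustment over all 571 tested miRNAs). In bulk libraries fewer cells with a miRNA and less of it per cell cannot be told apart. In 2i against serum 1 of the 9 tested miRNAs was higher, miR-218-5p, where 16.8% of all tested miRNAs were called higher. None of the 9 was called lower in that comparison, where 17.3% of all tested miRNAs were. Without adjustment, 3 had p under 0.05 and were higher, against 28.5% of all, and 2 were lower, against 29.1%. In R2i against serum 1 of the 9 was higher, miR-153-3p, against 15.1% of all, and none was lower, against 15.6%. Here p was under 0.05 before adjustment for 2 higher and 1 lower, against 22.8% and 26.8% of all. DESeq2 called miR-9-5p lower in 2i and miR-218-5p higher in R2i beside these, and limma on the deposited log2 values made the same calls as edgeR in both comparisons.

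In the ground state against serum 2 of the 9 rose, miR-153-3p and miR-218-5p, and 1 fell, miR-7a-5p, where 17.0% of all tested miRNAs were called higher and 20% lower. These shares of the 9 are near the background. The median log2 fold change of the 9 was 0.05 for 2i, 0.02 for R2i and 0.04 for their mean, with 5 positive and 4 negative values each time. Over all tested miRNAs the medians were -0.03, -0.07 and -0.02. The 3 comparisons share the serum libraries, so their values are not independent of each other.

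**Figure D2:**
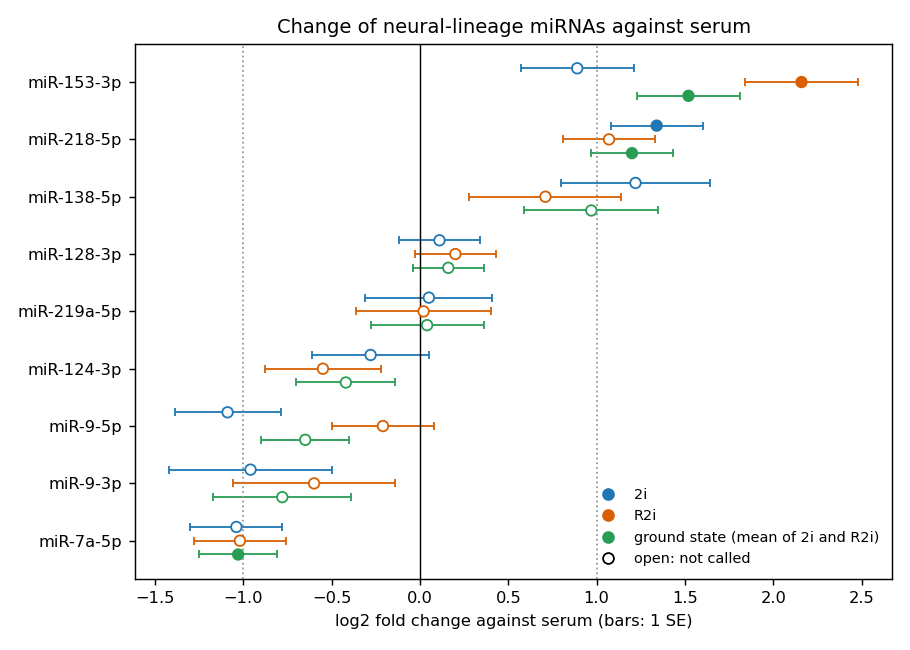
Log2 fold change against serum (horizontal axis) of the 9 tested miRNAs in 2i (blue), R2i (orange) and the ground state (green). Bars are 1 SE, derived from the F statistic of the edgeR fit over 6 libraries. Filled points were called, open points were not, and dotted lines mark a 2-fold change; 5 points are filled, those of miR-153-3p in R2i and the ground state, miR-218-5p in 2i and the ground state and miR-7a-5p in the ground state.

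The neurogenic miR-9 pair comes from a common hairpin, and its 5p arm was the abundant one, with 1791 counts against 98, or 94.8% (Wilson interval 93.7 to 95.7) over the 6 libraries. miR-9-5p was counted 237 and 426 times in serum RB18 and RB20, 148 and 289 times under 2i, and 169 and 522 times under R2i. In normalized CPM these were 130 and 211 in serum, 71.9 and 88.2 under 2i, and 145 and 149 under R2i. Both 2i libraries lay below both serum libraries, while the R2i libraries lay between those of serum. The difference was -1.09 (SE 0.30) on the log2 scale in 2i with an edgeR adjusted p of 0.0170, which misses the limit, and -0.21 (SE 0.29, adjusted p 0.607) in R2i. Between 2i and R2i the difference was -0.88 (SE 0.30, edgeR adjusted p 0.185), although the 2 pairs of libraries did not overlap. Without the serum RB18 library miR-9-5p was called lower in 2i, at -1.29 (edgeR adjusted p 0.00643, in a range of 0.004 to 0.0951 over the alternatives).

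miR-9-3p, the minor arm, was counted between 7 and 25 times per library. It was at 12.0 and 8.43 normalized CPM in serum, 6.8 and 3.97 under 2i, and 6.0 and 7.15 under R2i. All 4 ground-state libraries lay below serum, but the log2 fold changes of -0.96 (SE 0.46) in 2i and -0.60 (SE 0.46) in R2i had edgeR adjusted p of 0.118 and 0.34.

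miR-124-3p, the classical neuronal miRNA, was counted 1138 and 681 times in serum, 920 and 1120 times under 2i, and 364 and 1202 times under R2i. Its levels were 623 and 338 normalized CPM in serum RB18 and RB20, 447 and 342 under 2i, and 312 and 344 under R2i. The serum RB18 library stood highest and the other 5 lay between 312 and 447. Mean levels were 480 ± 202 (SD, n = 2) in serum, 395 ± 74.3 in 2i and 328 ± 22.3 in R2i. The log2 fold changes of -0.28 (SE 0.33, edgeR adjusted p 0.504) in 2i and -0.55 (SE 0.33, adjusted p 0.225) in R2i did not exceed the spread. They became 0.33 and 0.067 without serum RB18.

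The other arm of the miR-124 hairpins, miR-124-5p, was tested as well and behaved differently between the serum libraries. It was at 55.9 and 76.8 normalized CPM in serum, 46.2 and 34.2 under 2i, and 32.6 and 39.8 under R2i, so that all 4 ground-state libraries lay below serum. Its log2 fold change in the ground state was -0.80 (SE 0.23, edgeR adjusted p 0.0229), which was not called. The 3p arm made up 91.8% (Wilson interval 90.1 to 93.2) of the counts of both arms in serum RB18 but 81.5% (78.7 to 83.9) in serum RB20. In the 4 ground-state libraries that share was between 89.6% and 90.9%, so that serum RB20 stood apart.

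miR-128-3p, a miRNA of maturing neurons, was the steadiest of the abundant ones. It was counted 593 and 729 times in serum, 819 and 1125 times under 2i, and 424 and 1490 times under R2i. The levels were 325 and 361 normalized CPM in serum, 398 and 344 under 2i, and 364 and 426 under R2i, so that both R2i libraries lay above serum while 2i and serum overlapped. The log2 fold changes were 0.11 (SE 0.23, edgeR adjusted p 0.721) in 2i and 0.20 (SE 0.23, adjusted p 0.527) in R2i. Of its 2 hairpins, the 5p arm of Mir128-1 was counted 435 times over the 6 libraries and that of Mir128-2 was counted 0 times in every library, below the 3 counts that can be read. miR-128-1-5p changed by -0.24 (SE 0.36, edgeR adjusted p 0.611) in 2i and -0.11 (SE 0.36, adjusted p 0.85) in R2i.

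miR-7a-5p, the most abundant of the 10, was counted 10003 and 16525 times in serum, 7182 and 10331 times under 2i, and 4143 and 11138 times under R2i. The levels were 5477 and 8192 normalized CPM in serum RB18 and RB20, 3490 and 3154 under 2i, and 3554 and 3186 under R2i. The 4 ground-state libraries lay close together and below both serum libraries, which differed from each other by 0.58 on the log2 scale. Mean levels were 6835 ± 1920 (SD, n = 2) in serum, 3322 ± 237 in 2i and 3370 ± 260 in R2i. miR-7a-5p fell by 1.03 on the log2 scale in the ground state (SE 0.22, 2.04-fold lower, edgeR adjusted p 0.00485). The single media gave -1.04 (SE 0.26, adjusted p 0.0123) and -1.02 (SE 0.26, adjusted p 0.0147), which were not called.

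This call lies at both limits and is not firm. With the cell line as a block it was lost, at -1.02 with an edgeR adjusted p of 0.0112, in a range of 0.00017 to 0.0327 over the alternatives. The fold dropped just under 2 with library totals (-0.94), with DESeq2 (-0.96) and with limma (-0.97). The call was also lost without serum RB20 (-0.76), 2i RB20 (-0.98), R2i RB20 (-0.98), 2i RB18 (-1.02) or R2i RB18 (-1.04), and kept without serum RB18 (-1.18). The value was negative in each of these. Both other filters also lost the call, at least 10 counts in every library and every miRNA of at least 1 count. So did the block together with library totals.

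**Figure D3:**
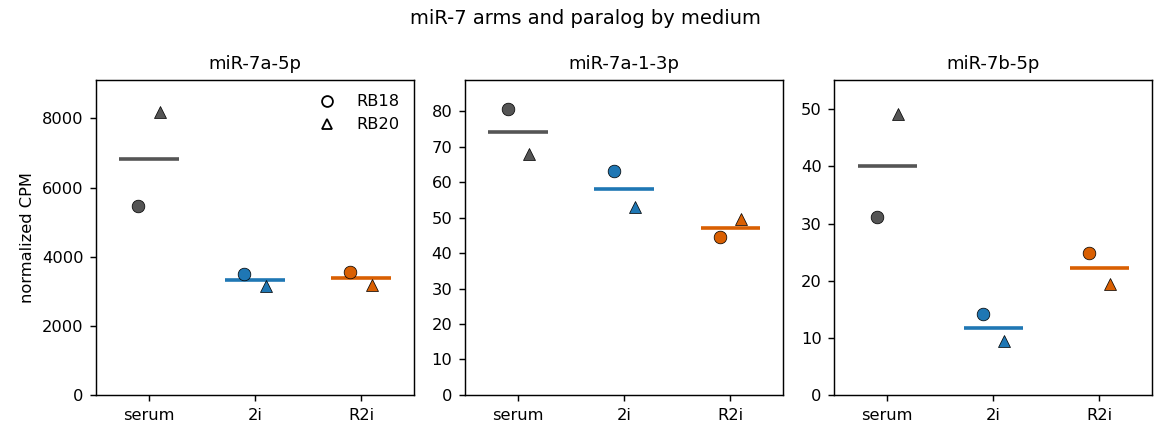
Normalized CPM (vertical axes from 0, own scale each) of miR-7a-5p, its 3p arm miR-7a-1-3p and the paralog miR-7b-5p in serum, 2i and R2i, with RB18 as circles, RB20 as triangles and bars for the mean of 2 libraries. In each panel the 4 ground-state libraries lie below both serum libraries.

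The paralog miR-7b-5p has the miR-7a seed and comes from its own gene, Mir7b, at chr17:56242988-56243098. It was counted 57 and 99 times in serum, 29 and 31 times under 2i, and 29 and 68 times under R2i, against 59322 counts for miR-7a-5p over all libraries. The levels were 31.2 and 49.1 normalized CPM in serum, 14.1 and 9.47 under 2i, and 24.9 and 19.5 under R2i, with the 2i libraries lowest. miR-7b-5p fell by 1.79 on the log2 scale in 2i (SE 0.35, edgeR adjusted p 0.00385) and by 1.34 in the ground state (SE 0.29, adjusted p 0.00541). In R2i the value was -0.89 (SE 0.34, adjusted p 0.0747). With the cell line as a block both calls were lost, with edgeR adjusted p of 0.0114 and 0.0144, in ranges of 2.12e-05 to 0.0417 and 0.000111 to 0.0511 over the alternatives. Counts of miR-7b-5p are uncertain as far as the counting could split reads between it and the far more abundant miR-7a-5p.

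The 3p arms differ between the miR-7a genes so that reads of the 2 hairpins can be told apart there. miR-7a-1-3p, from the Hnrnpk intron, was counted 813 times and miR-7a-2-3p 6 times, so that 99.3% (Wilson interval 98.4 to 99.7) of the 3p counts were those of Mir7-1. miR-7a-1-3p was at 80.5 and 67.9 normalized CPM in serum, 63.2 and 53.1 under 2i, and 44.6 and 49.5 under R2i. All 4 ground-state libraries lay below serum, but its log2 fold changes of -0.35 (SE 0.23, edgeR adjusted p 0.234) and -0.65 (SE 0.24, adjusted p 0.0605) were not called. The ratio of miR-7a-5p to miR-7a-1-3p counts was 68 and 121 in serum, 55.2 and 59.4 under 2i, and 79.7 and 64.4 under R2i, with serum RB20 the highest.

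miR-153-3p, which is expressed in brain and neuroendocrine cells, had the largest change of the 9 tested in R2i and in the ground state. It was counted 36 and 25 times in serum, 56 and 104 times under 2i, and 70 and 286 times under R2i. The levels were 19.7 and 12.4 normalized CPM in serum RB18 and RB20, 27.2 and 31.8 under 2i, and 60.0 and 81.8 under R2i. The 3 media did not overlap, with serum lowest and R2i highest. miR-153-3p rose by 2.16 on the log2 scale in R2i (SE 0.32, 4.47-fold, edgeR adjusted p 0.000946) and by 1.52 in the ground state (SE 0.29, 2.87-fold, adjusted p 0.00276). In 2i alone the value was 0.89 (SE 0.32, adjusted p 0.0492), which was not called.

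The R2i call of miR-153-3p was made under every alternative that was run. The ground-state call was lost without serum RB20, at 1.17 with an edgeR adjusted p of 0.0211, in a range of 1.4e-05 to 0.0211 over the alternatives. Both lines gave positive differences in both media, 0.45 in 2i and 1.57 in R2i for RB18, and 2.64 in R2i for RB20. Between 2i and R2i the log2 difference was -1.27 (SE 0.29, edgeR adjusted p 0.0978), and DESeq2 gave an adjusted p of 0.023, in a range of 0.0104 to 0.423. The 5p arm, miR-153-5p, had 21 counts in all against 577 for the 3p arm and was not tested.

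miR-218-5p, known from motor neurons, was counted 60 and 93 times in serum, 210 and 320 times under 2i, and 90 and 309 times under R2i. The levels were 32.9 and 46.1 normalized CPM in serum RB18 and RB20, 102 and 97.7 under 2i, and 77.2 and 88.4 under R2i. All 4 ground-state libraries lay above both serum libraries. miR-218-5p rose by 1.34 on the log2 scale in 2i (SE 0.26, 2.52-fold, edgeR adjusted p 0.00344) and by 1.20 in the ground state (SE 0.23, 2.30-fold, adjusted p 0.00304). In R2i it was at 1.07 (SE 0.26, 2.10-fold) with an adjusted p of 0.0112, just short of the limit.

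Within the lines the differences of miR-218-5p from serum were 1.61 in 2i and 1.21 in R2i for RB18, and 1.07 and 0.93 for RB20. The R2i value passed the limits in DESeq2 (1.16) and with library totals (1.18), while the 2i call was lost without 2i RB18 (1.35, edgeR adjusted p 0.0104) or 2i RB20 (1.39, adjusted p 0.0193). The adjusted p of the 2i value ranged from 0.00014 to 0.0193 over the alternatives. The ground-state call was lost without 2i RB20 (1.24, edgeR adjusted p 0.0104) or R2i RB20 (1.16, adjusted p 0.0115), in a range of 5.77e-05 to 0.0115. The 3p arms were rare, with 18 counts for miR-218-1-3p, from the Slit2 intron, and 2 for miR-218-2-3p, from the Slit3 intron.

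miR-138-5p, known from dendrites and synapses, was counted 57 and 26 times in serum, 96 and 182 times under 2i, and 31 and 152 times under R2i. The levels were 31.2 and 12.9 normalized CPM in serum RB18 and RB20, 46.7 and 55.6 under 2i, and 26.6 and 43.5 under R2i. The 2i libraries lay above serum, and the R2i RB18 library lay below serum RB18. The log2 fold change was 1.22 (SE 0.42, edgeR adjusted p 0.043) in 2i and 0.71 (SE 0.43, adjusted p 0.226) in R2i, and neither was called.

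Of the 9 tested miRNAs, the 2 lines differed most for miR-138-5p in serum and in R2i. In serum RB18 was 2.42-fold above RB20, whereas in R2i RB20 was 1.64-fold above RB18. The differences from serum were accordingly 0.57 in 2i and -0.22 in R2i for RB18, and 2.04 and 1.69 for RB20. Without serum RB18, miR-138-5p was called higher in 2i, at 2.09 (edgeR adjusted p 0.00696), and in the ground state, at 1.84 (adjusted p 0.00886). With all libraries kept and every miRNA of at least 1 count tested, it was also called in 2i, at 1.27 (edgeR adjusted p 0.00143), and in the ground state, at 1.00 (adjusted p 0.00697). Over the alternatives the adjusted p ranged from 0.00143 to 0.163 and from 0.00697 to 0.337. With 1 library per line and medium, the difference between the lines was not tested. The 3p arms had 25 counts for miR-138-1-3p and 16 for miR-138-2-3p.

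**Figure D4:**
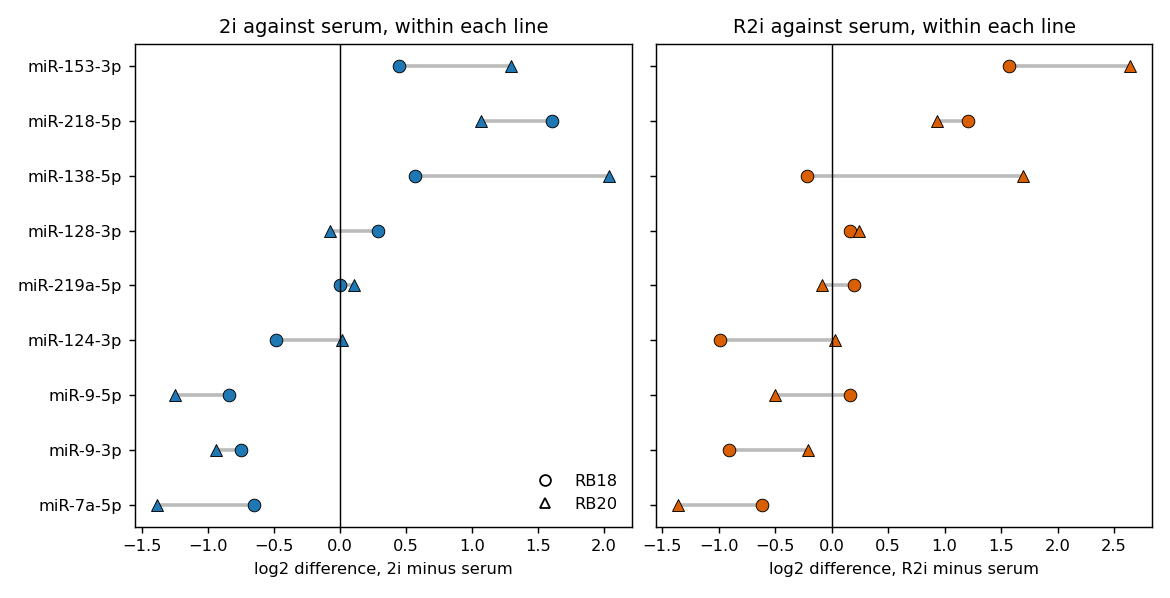
Log2 difference in normalized CPM from serum within RB18 (circles) and RB20 (triangles) for 2i and R2i, 1 value per line and medium, joined by a grey bar for each miRNA. The bar is longest for miR-138-5p, and both lines lie on the same side of 0 in both media for miR-153-3p, miR-218-5p, miR-9-3p and miR-7a-5p.

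miR-219a-5p, known from oligodendrocytes, was counted between 17 and 37 times per library and differed little between media. The levels were 12.6 and 10.4 normalized CPM in serum, 12.6 and 11.3 under 2i, and 14.6 and 9.73 under R2i. The log2 fold changes were 0.05 (SE 0.36, edgeR adjusted p 0.905) in 2i and 0.02 (SE 0.38, adjusted p 0.964) in R2i. Its partner arm miR-219a-1-3p was counted 66 times against 7 for miR-219a-2-3p and was not called in any comparison. The paralogs miR-219c-5p and miR-219c-3p had 20 and 10 counts in all.

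miR-137-3p, known from neuronal differentiation, was near the limit of detection. It was counted 3 and 1 times in serum RB18 and RB20, 0 and 8 times under 2i, and 4 and 2 times under R2i. The 0 of 2i RB18 lies below the 3 counts that can be read, 1.46 CPM in that library, and its Wilson interval reaches 1.87 CPM. The levels of the other 5 libraries were between 0.496 and 3.43 normalized CPM. No order of the media can be read from these counts. The 5p arm, miR-137-5p, was at 0 in every library.

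In 2i against R2i none of the 9 tested miRNAs was called by edgeR, and the background was 0.350% of all tested miRNAs higher and 0% lower. Before adjustment p was under 0.05 for none that was higher and for 2 that were lower in 2i, miR-153-3p and miR-9-5p. Among all tested miRNAs 7.53% were higher and 10.7% lower at that limit. DESeq2 and limma called none of them either. The median log2 difference was -0.02 for the 9 and 0.01 for all tested miRNAs.

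The remaining arms and paralogs added few counts. Of 19 listed arms and paralogs that were in the table, 11 had at least 10 counts over the 6 libraries, and 5 were tested. The 4 tested arms, miR-124-5p, miR-128-1-5p, miR-7a-1-3p and miR-219a-1-3p, were all negative against serum in 2i and in R2i, and none was called. Among all tested miRNAs 17.3% were called lower in 2i and 15.6% in R2i. The median log2 fold changes over all tested miRNAs were -0.03 and -0.07, so negative values were at least as frequent there as positive ones. The medians of the 4 arms were -0.54 and -0.74, and whether the arms differ from the rest was not tested. The 8 listed arms and paralogs with fewer than 10 counts were miR-219b-3p (8), miR-219a-2-3p (7), miR-7a-2-3p (6), miR-218-2-3p (2), miR-7b-3p (1) and, at 0, miR-128-2-5p, miR-137-5p and miR-219b-5p.

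A list of 14 other miRNAs known from nervous tissue served for comparison, of which 11 were tested and none was called in any comparison with serum or between 2i and R2i, beside 16.8% higher and 17.3% lower of all tested miRNAs in 2i against serum. Before adjustment 1 of them had p under 0.05, lower in 2i against serum (29.1% of all were), and none did in R2i against serum (22.8% of all higher and 26.8% lower). At that limit 1 was lower in the ground state against serum, where 171 of all 571 tested were. Another 1 was lower in 2i against R2i, where 10.7% of all were. The highest was miR-135b-5p, at 162 and 173 normalized CPM in serum, 184 and 220 under 2i, and 159 and 150 under R2i. Next were miR-129-5p, with 31.2 and 77.8 in serum and 19.8 to 42.0 elsewhere, and miR-129-2-3p, with 25.7 and 25.8 in serum and 12.2 to 31.7 elsewhere. The median log2 fold change of the 11 was -0.35 in 2i and -0.11 in R2i, where those of all tested miRNAs were -0.03 and -0.07.

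**Figure D5:**
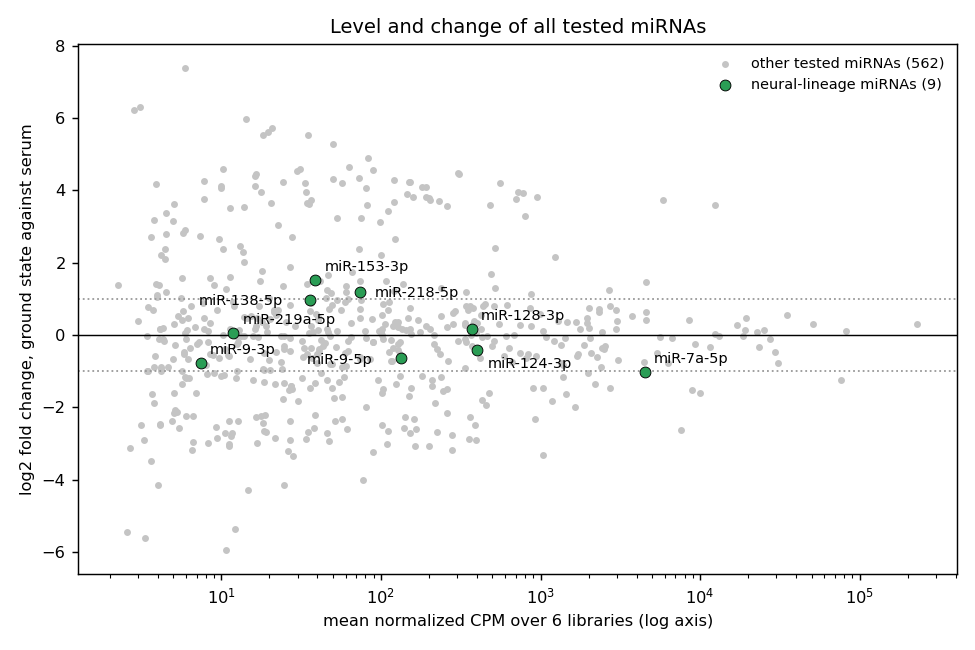
Log2 fold change of the ground state against serum (vertical axis) plotted over the mean normalized CPM of the 6 libraries (horizontal log axis) for 571 tested miRNAs. The 9 neural-lineage miRNAs (green) lie between -1.03 and 1.52, within the cloud of the other 562 (grey), and dotted lines mark a 2-fold change.

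For the 3 called miRNAs, the miRNAs with the nearest profile were found by the root-mean-square distance between log2 CPM centred on each miRNA's own mean over the 6 libraries. The nearest to miR-218-5p of 562 compared was miR-301a-3p, at a distance of 0.0885, with 1154 and 1649 normalized CPM in serum, 3434 and 3955 under 2i, and 2905 and 3105 under R2i. miR-98-5p followed at 0.138. The nearest to miR-7a-5p of 561 were miR-1947-5p (0.141) and miR-7226-3p (0.145). The nearest to miR-153-3p were miR-874-3p (0.451) and miR-187-3p (0.478), at larger distances than for the other two. Profiles over 6 libraries from the same 3 media are a description and carry no test.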

How the data were processed

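Small RNA was sequenced from 2 ESC lines in 3 media, 1 library per line and medium. The authors deposited unnormalized counts for 1907 mature miRNAs, and log2 values for 1233 of them, which equal log2(count / size factor + 1) within 0.005. The submitters' processing notes name FastQC 0.11.5, cutadapt 1.3, Bowtie 1.1.2, featureCounts 1.5 and mm10; how reads that match several hairpins were counted is not given in the sources used here, and miRNAs with several genes or near-identical paralogs are uncertain to that extent. R 4.3.3 with edgeR 4.0.16 served to test the counts (quasi-likelihood test, TMM scaling, filterByExpr at 10 counts and a total of 15, 1 coefficient per medium over all 6 libraries), checked on simulated data. Calls needed a Benjamini-Hochberg adjusted p under 0.01, adjustment being a choice made here, and more than 2-fold. The biological coefficient of variation was 24.6%. Permutations of 2 against 2 libraries cannot give a two-sided p below 0.33, or of 4 against 2 below 0.067, so p-values rest on the spread that edgeR shares between miRNAs. The same lines were grown in every medium, so the line numbers in the labels pair the libraries; deviations of the lines correlated at 0.211 between serum and 2i, 0.243 between 2i and R2i and -0.128 between serum and R2i. Alternatives were library totals, other filters, the line as a block, DESeq2 1.42.0, limma 3.58.1 on the log2 values, fits to 2 media, a limit of 0.05 at any fold and leaving out each library; the block with library totals was added after the data were seen. The 10 miRNAs and the lists were chosen with earlier results of these data known. Named beside the 10 were their arms and paralogs with at least 10 counts, the 3 highest of the nervous-tissue list and any called, miRNAs with the same seed and at least the same mean level, and for each called miRNA the 2 nearest profiles. Sequences and coordinates are of GRCm38. Python 3.11.15 was used for levels, intervals (scipy 1.17.1) and plots (matplotlib 3.10.9), together with numpy 2.4.6 and pandas 2.3.3.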

Additional observations from a re-analysis of the deposited data

Results flagged for a closer look

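For miR-124-3p the differences from serum were negative in RB18 and slightly above 0 in RB20: the log2 differences from serum in 2i and R2i were -0.48 and -0.99 in RB18 but 0.02 and 0.03 in RB20. The difference between the lines was not tested, since each line had 1 library per medium, and the RB20 values are close to no change. Among the 4 ground-state libraries, none of the 10 miRNAs had a library that stood apart by Dixon's limit; chance alone would flag about 1 in 20 such groups.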

How the results depend on the processing

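The number of the 9 called in 2i against serum was 1, but 3 with every miRNA of at least 1 count, 2 with DESeq2 and 5 at an adjusted p under 0.05 at any fold. It ranged from 0 (without either 2i library) to 4 (without serum RB18) when a library was left out. In R2i it was 1, but 2 with library totals, with every miRNA of at least 1 count, with at least 10 counts in every library, with the line as a block together with library totals, with DESeq2 and with the libraries of the 2 media alone, and 3 at an adjusted p under 0.05; miR-218-5p is the second in each of the former. With a library left out it ranged from 1 to 2 (without serum RB18). In the ground state the 3 ranged from 1 (without serum RB20, 2i RB20 or R2i RB20) to 4 (without serum RB18) and were 2 or 3 under the other settings; with every miRNA of at least 1 count the 3 held miR-138-5p in place of miR-7a-5p. In 2i against R2i it was 0 under every alternative run. As a replicate block, the line changed the calls of miR-7a-5p and miR-7b-5p given above, left 2 calls in the ground state and changed no other call of the 10. In R2i the median log2 fold change over the 571 miRNAs shifted by 0.11, from -0.07 to 0.03, with library totals.

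Of the members' log2 fold changes under the alternatives, 468 kept their direction and side of the limits, 21 passed the limits anew, 17 lost them and 21 changed sign. miR-7a-5p in 2i against R2i was 0.014 with every miRNA of at least 1 count. miR-219a-5p in 2i against R2i was -0.047 with library totals, -0.046 with the block and library totals, -0.044 with DESeq2 and -0.04 with limma. With a library left out, the ranges that cross 0 were -0.41 to 0.13 for miR-9-5p in R2i, -0.73 to 0.027 for miR-9-3p in 2i against R2i, -0.72 to 0.33, -0.97 to 0.067 and -0.85 to 0.2 for miR-124-3p in 2i, R2i and the ground state, -0.19 to 0.043 for miR-128-3p in 2i against R2i and -0.084 to 0.1 for miR-7a-5p in 2i against R2i. For miR-219a-5p they were -0.13 to 0.3 in 2i, -0.24 to 0.35 in R2i, -0.15 to 0.28 in the ground state and -0.27 to 0.33 in 2i against R2i. Where a library was left out, the lone library of that medium was assumed to vary like the others. The cause of these changes was not tested. Precision from counting was lowest for miR-137-3p, miR-9-3p and miR-219a-5p, counted fewer than 40 times per library.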
